A study of Mus musculus with 40 samples.

Results

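The 10 genes of innate sensing were followed through hearts in which cardiomyocytes were made to express *Il11*: the Toll-like receptors *Tlr2*, *Tlr4*, *Tlr7* and *Tlr13*, the co-receptor *Cd14*, the adaptor *Myd88*, and the inflammasome genes *Nlrp3*, *Pycard*, *Casp1* and *Gsdmd*. They were chosen by name, with earlier results of these data known. All 10 were present among the 17646 genes listed for male hearts and the 17223 listed for female hearts, and all 10 passed the filter on low values in both sexes.

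Toll-like receptors are membrane proteins of macrophages and many other cells that bind microbial molecules or molecules released by injured tissue. Most of them signal through the adaptor MyD88 to NF-κB, which switches on inflammatory genes, among them precursors that the inflammasome later processes. The inflammasome is a cytosolic assembly in which a sensor such as NLRP3 recruits the adaptor ASC (encoded by *Pycard*) and caspase-1, which cleaves IL-1β and IL-18 and the pore-forming protein gasdermin D. In the heart these genes are best known from resident and recruited macrophages after injury.

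PolyA RNA from mouse hearts was sequenced as 1 library per mouse. The CM-Il11-Tg mice were heterozygous for α-MHC-MerCreMer, a tamoxifen-dependent Cre driven by a cardiomyocyte promoter, and for *Rosa26-Il11*, the mouse *Il11* transgene that Cre releases. The controls (labelled WT) were age-matched adult littermates that carried the Cre but not *Rosa26-Il11* and were given tamoxifen. Control and uninduced libraries are labelled Baseline, with no time after tamoxifen, so 1 control group per sex serves all 3 induced times and its match to each in time cannot be told from the labels. CM-Il11-Tg hearts were taken 1, 3 and 6 weeks after tamoxifen, and a further CM-Il11-Tg group was taken without tamoxifen, here called uninduced. Every group thus carried the Cre, on a mixed C57BL/6N and C57BL6/J background, and every group except the uninduced one received tamoxifen. The uninduced and control groups therefore differed both in the transgene and in the drug, and these cannot be told apart. Each group held 4 mice per sex, except in males, where the control and the 6-week group held 3, because 2 libraries with contradictory labels were left out.

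Library depth ran from 16663513 to 65333832 reads on listed genes in the 18 male libraries and from 19147947 to 30929192 in the 20 female libraries. Values are read counts scaled to library size by the authors and named CPM, within 1 table for each sex, so levels were compared within a sex. *Il11* itself followed the labels: it was at no more than 0.147 CPM in male controls and 0.166 CPM in female controls, and at 328 to 819 CPM in every induced library. Uninduced hearts were not at the control level, with 16.5 to 23.3 CPM in males and 15.5 to 49.1 CPM in females. Female uninduced replicate 3 was the highest of that group. The cardiomyocyte marker *Myh6* averaged 33500 CPM in male and 20500 CPM in female controls, so the libraries carry the transcript that marks heart muscle.

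Sequence immediately upstream of the start sites of 3 of the genes is shown because they span the responses described below: *Tlr13* and *Tlr2* had the largest mean change of the 2 sexes at 6 weeks, and *Nlrp3* was the member with the fewest reads. Each run is the 250 bases of GRCm39 before the start of the canonical transcript, on the strand of the gene. *Tlr2* lies on the minus strand and its run is chr3:83749075-83749324. *Tlr13* lies on the plus strand and its run is chrX:105186561-105186810. *Nlrp3* lies on the plus strand and its run is chr11:59433262-59433511, inside the annotated span of the gene but outside its exons. Capitals mark letters that match NF-kB (GGG, A or G, any 2 bases, 2 of C or T, CC) or PU.1 (GAGGAA) in either orientation.
Tlr2: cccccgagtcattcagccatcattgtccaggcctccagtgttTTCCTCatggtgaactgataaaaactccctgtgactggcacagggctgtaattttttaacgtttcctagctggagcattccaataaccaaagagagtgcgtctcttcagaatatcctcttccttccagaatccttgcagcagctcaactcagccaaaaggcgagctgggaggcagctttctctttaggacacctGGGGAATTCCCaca
Tlr13: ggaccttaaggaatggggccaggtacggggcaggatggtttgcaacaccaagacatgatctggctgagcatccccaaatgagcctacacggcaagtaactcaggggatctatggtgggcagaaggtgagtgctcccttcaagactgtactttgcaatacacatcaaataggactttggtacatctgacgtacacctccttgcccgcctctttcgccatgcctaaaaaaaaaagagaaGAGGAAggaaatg
Nlrp3: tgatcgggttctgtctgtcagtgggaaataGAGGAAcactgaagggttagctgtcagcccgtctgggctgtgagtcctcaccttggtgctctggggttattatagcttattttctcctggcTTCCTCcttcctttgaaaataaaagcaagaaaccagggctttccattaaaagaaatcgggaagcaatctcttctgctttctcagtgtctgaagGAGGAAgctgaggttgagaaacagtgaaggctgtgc
In *Tlr2* the 3 NF-kB matches overlap each other, 14 to 4 bases before the start, and 1 PU.1 match lies 208 to 203 bases before it. *Tlr13* has 1 PU.1 match 13 to 8 bases before the start, and *Nlrp3* has 3. Over the same window of 10 members, NF-kB was matched in 1 (*Tlr2*) and the GAS letters TTCNNNGAA in 1 (*Cd14*). The ISRE letters (TTTC, any 2 bases, TTTC) were matched in 0 and the PU.1 letters in 6 (*Tlr2*, *Tlr4*, *Tlr13*, *Nlrp3*, *Pycard* and *Casp1*). Among 21770 promoter windows of the same length the shares with a match were 7.62%, 7.7%, 3.32% and 22.9%. A match is a description of the letters, not evidence of binding.

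Against controls, most of the 10 genes were higher in CM-Il11-Tg hearts as early as 1 week after tamoxifen and were still higher at 6 weeks. In males 8 of 10 were higher at an adjusted p under 0.05 at each of 1, 3 and 6 weeks, where 18.9%, 13.2% and 16.2% of all 16931 genes tested were called higher. In females 9 of 10 were higher at each time, where 15.3%, 16.8% and 21.7% of 16956 genes were. None was called lower at any time, where 14.6%, 8.1% and 10.9% of all genes were in males and 13.1%, 14.5% and 21.0% in females. The median log2 fold change of the 10 genes was 0.94, 0.95 and 1.1 in males and 1.07, 1.11 and 1.11 in females at 1, 3 and 6 weeks, while the median over all genes tested lay between -0.02 and 0.02. The groups did not overlap, with every CM-Il11-Tg library above every control, for 8, 7 and 8 members in males and 8, 9 and 7 in females, against 22%, 18.4% and 20.4% of all genes in males and 16.5%, 18.9% and 19.5% in females.

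These changes are fitted by limma on log2(CPM + 0.5), which understates the change of genes with few reads, and the 3 times share 1 control group in each sex. In bulk tissue, more cells of a type and more RNA per cell cannot be told apart. Of the 10 members, 6 were called higher in both sexes at all 3 times: *Tlr2*, *Tlr7*, *Tlr13*, *Cd14*, *Myd88* and *Pycard*. The count was 5, without *Tlr7*, under edgeR, a pseudocount of 2, median-of-ratios scaling or a fit of only the 2 groups compared, and 8 when every library was rescaled to 1 common sum, which added *Tlr4* and *Gsdmd*. At each single time 7 were called higher in both sexes, where 10.9%, 11.3% and 12.9% of the 16627 genes tested in both were.

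**Figure D1:**
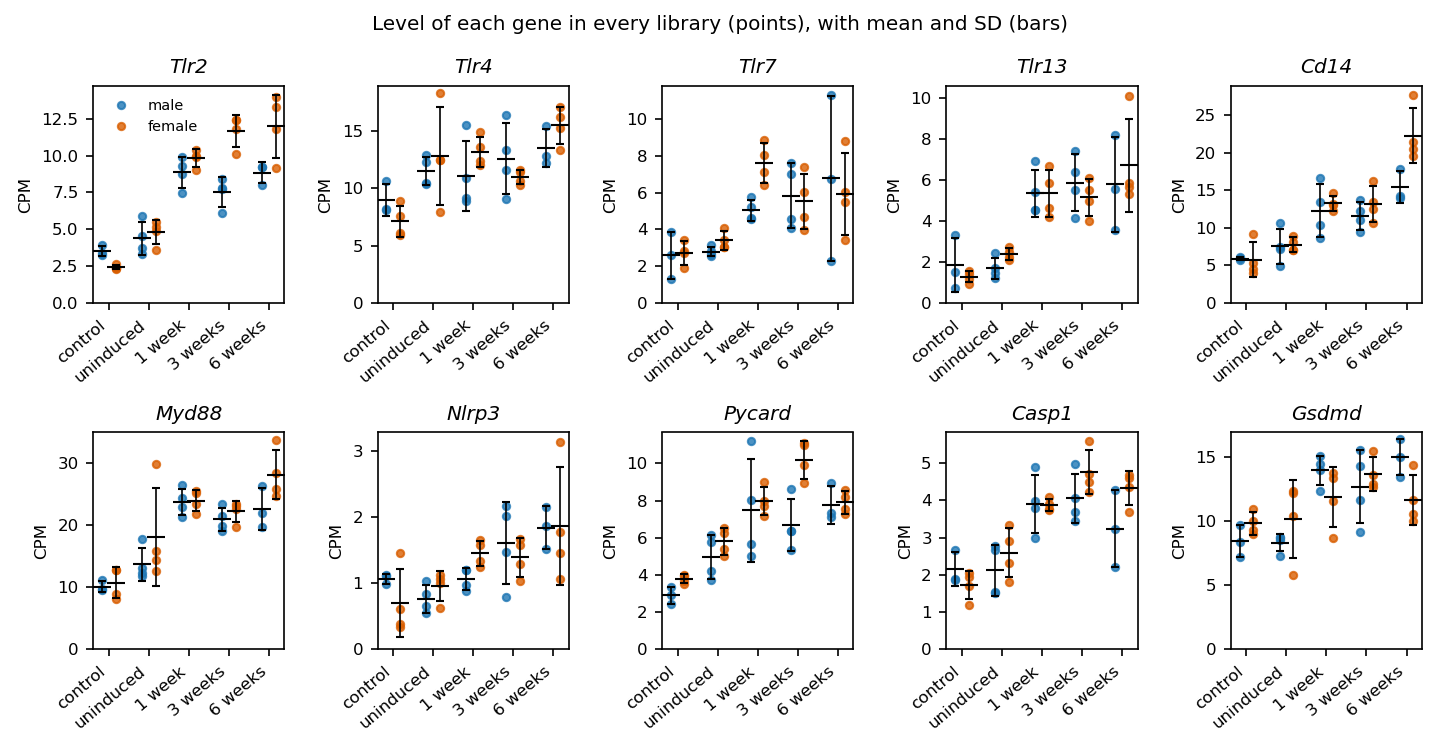
Each panel plots 1 gene: CPM (vertical axis, from 0) by group, with points for single libraries (male blue, female orange) and black bars for mean and SD. *Tlr2* stepped from 2.33 to 3.92 CPM in controls to 6.08 to 14.0 CPM in induced hearts, while *Gsdmd* in females stayed between 5.79 and 15.5 CPM across all groups.

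*Tlr2* encodes the receptor for bacterial lipoproteins, lies on chromosome 3 of GRCm39 from 83743576 to 83749074 and rose in both sexes at every time. Male hearts held 3.26, 3.41 and 3.92 CPM in controls, 3.76, 3.35, 5.91 and 4.53 in uninduced hearts, 9.94, 9.31, 8.74 and 7.49 at 1 week, 7.79, 8.42, 6.08 and 7.77 at 3 weeks and 9.23, 9.25 and 8.0 at 6 weeks. Female hearts held 2.33, 2.66, 2.4 and 2.38 CPM in controls, 3.62, 4.9, 5.51 and 5.14 in uninduced hearts, 9.0, 10.0, 10.4 and 9.93 at 1 week, 11.8, 10.1, 12.4 and 12.4 at 3 weeks and 9.16, 11.8, 14.0 and 13.3 at 6 weeks. Every induced library lay above every uninduced and control library of its sex, and in females the uninduced libraries formed a step of their own, above all controls. At 6 weeks the mean was 2.5 times the control mean in males (log2 fold change 1.21, standard error 0.18, adjusted p = 3.45e-05) and 4.93 times in females (2.08, standard error 0.13, adjusted p = 1.11e-10). In the female order control, uninduced, 1, 3 and 6 weeks, the first 2 steps passed the test (adjusted p = 0.000699 and 2.76e-05) and the last 2 did not (0.543 and 0.95).

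*Tlr13*, the mouse endosomal receptor for bacterial ribosomal RNA, had the largest fitted rise of the 10 in males at each of 1, 3 and 6 weeks, and in females was second to *Tlr2*. In male controls it was at 0.75, 1.51 and 3.29 CPM, against 5.39, 4.52, 4.52 and 6.93 at 1 week, 6.36, 5.49, 4.14 and 7.43 at 3 weeks and 3.57, 8.19 and 5.57 at 6 weeks. In female controls it was at 1.42, 1.16, 1.55 and 0.942 CPM, against 5.83, 6.7, 4.18 and 4.64 at 1 week, 6.1, 3.99, 4.99 and 5.5 at 3 weeks and 5.63, 5.84, 10.1 and 5.3 at 6 weeks. No induced library overlapped the controls of its sex, although the male controls themselves spread widely. The log2 fold change was 1.44, 1.56 and 1.5 in males (standard error 0.33 and adjusted p = 0.00203 at 6 weeks) and 1.72, 1.67 and 2.0 in females (standard error 0.19 and adjusted p = 3.55e-08 at 6 weeks). *Tlr13* lies on chromosome X from 105186810 to 105204533.

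*Tlr7*, the endosomal receptor for single-stranded RNA, also on chromosome X (166086758 to 166113605), rose less evenly. Male controls were at 1.31, 2.61 and 3.86 CPM and male hearts at 6 weeks at 2.28, 11.3 and 6.76, so that these groups overlapped. Female controls were at 1.89 to 3.44 CPM, and induced female hearts at 6.4 to 8.86 at 1 week, 3.99 to 7.41 at 3 weeks and 3.44 to 8.82 at 6 weeks. The log2 fold change was 0.93, 1.08 and 1.09 in males (adjusted p = 0.0477, 0.0331 and 0.0359) and 1.35, 0.89 and 0.96 in females (adjusted p = 8.04e-05, 0.0035 and 0.00145). The male call at 1 week was lost with edgeR (adjusted p = 0.0752), a pseudocount of 2 (0.0653) and median-of-ratios scaling (0.0517), and that at 6 weeks with only the 2 groups in the fit (0.166). Leaving out single libraries ended it for 6 of 7 at 1 week, 4 of 7 at 3 weeks and 4 of 6 at 6 weeks, with the smallest changes 0.58 and 0.73 at 1 and 3 weeks without control replicate 1 (adjusted p = 0.255 and 0.202) and 0.63 without 6-week replicate 3 (0.197).

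*Tlr4*, the receptor for bacterial lipopolysaccharide (chromosome 4, 66745783 to 66849936), was called higher at 6 weeks alone in males and at all 3 times in females. Male libraries were at 8.09, 10.6 and 8.22 CPM in controls, 15.5, 8.9, 9.14 and 10.9 at 1 week, 9.1, 11.6, 13.3 and 16.4 at 3 weeks and 12.2, 15.4 and 12.8 at 6 weeks. Female libraries were at 8.87, 5.95, 7.55 and 6.1 CPM in controls, 13.6, 14.9, 12.4 and 12 at 1 week, 11.4, 11.6, 10.6 and 10.3 at 3 weeks and 16.2, 15.3, 17.1 and 13.3 at 6 weeks. Males overlapped their controls until 6 weeks and females at no induced time. The male log2 fold change was 0.27 (adjusted p = 0.291), 0.45 (0.104) and 0.56 (0.0466), and the female 0.86 (0.000735), 0.6 (0.0106) and 1.08 (4.37e-05), while the difference between the sexes was called at no time. The male call at 6 weeks was lost without 5 of its 6 libraries in turn, standing only without control replicate 3. It was also lost with a pseudocount of 2 (adjusted p = 0.0504), median-of-ratios scaling (0.051) and only the 2 groups in the fit (0.0593). Uninduced hearts were already at 10.4 to 12.9 CPM in males and 7.9 to 18.3 CPM in females, and against them *Tlr4* was not called at any time in either sex.

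*Cd14*, which hands lipopolysaccharide to TLR4 and also serves TLR2, had its highest mean at 6 weeks in both sexes. In males it was at 5.96, 6.06 and 5.71 CPM in controls, 16.6, 10.4, 8.64 and 13.4 at 1 week, 13.7, 9.45, 11.1 and 12.3 at 3 weeks and 14.0, 17.8 and 14.3 at 6 weeks. In females it was at 4.0, 4.55, 9.16 and 5.38 CPM in controls, 13.2, 12.2, 14.6 and 13.1 at 1 week, 12.5, 10.6, 16.2 and 13.4 at 3 weeks and 20.5, 27.7, 21.5 and 19.6 at 6 weeks. The female 6-week libraries lay above every other female library. The female log2 fold change was 1.2, 1.17 and 1.92 (standard error 0.18 and adjusted p = 4.49e-08 at 6 weeks), and the male 0.95, 0.91 and 1.3 (standard error 0.23 and adjusted p = 0.000262 at 6 weeks). *Cd14* lies on chromosome 18.

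*Myd88*, the adaptor shared by these receptors, rose in both sexes at every time. Male hearts held 11.2, 9.66 and 9.48 CPM in controls, 24.3, 22.9, 21.3 and 26.4 at 1 week, 23.3, 21.5, 19.9 and 19.0 at 3 weeks and 26.2, 19.7 and 21.9 at 6 weeks. Female hearts held 8.18, 8.86, 12.8 and 12.8 CPM in controls, 21.8, 25.1, 25.4 and 23.4 at 1 week, 22.5, 19.7, 23.3 and 23.1 at 3 weeks and 28.3, 33.6, 24.7 and 25.8 at 6 weeks. No induced library overlapped its controls, and the log2 fold change was 1.19, 1.01 and 1.12 in males and 1.15, 1.05 and 1.38 in females. At 6 weeks the adjusted p was 1.23e-05 and 1.05e-05. The female minus male difference at 6 weeks was 0.26, with a 95% interval from -0.27 to 0.79. *Myd88* (chromosome 9, 119165000 to 119170486, minus strand) overlaps *Acaa1a* on the other strand, and the strand setting of the counting is not given in the sources used here. *Acaa1a* did not move with it, at 0.17, -0.14 and -0.04 in males and -0.45, -0.18 and -0.31 in females, with the female values at 1 and 6 weeks called lower.

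**Figure D2:**
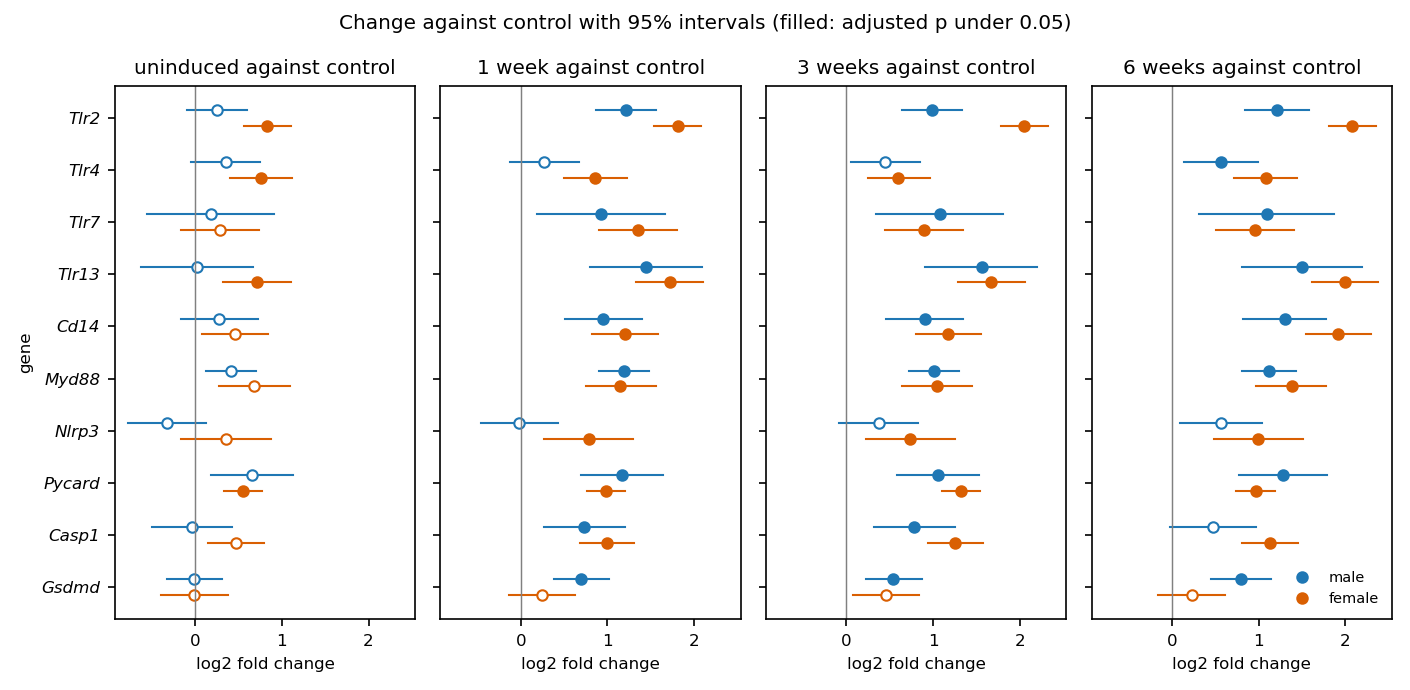
The fitted log2 fold change of each gene against control (horizontal axis) is drawn for uninduced hearts and for 1, 3 and 6 weeks, with 95% intervals (male blue, female orange). Filled points passed an adjusted p under 0.05: 8 of 10 genes in males and 9 of 10 in females at each induced time, and 0 in male and 4 in female uninduced hearts.

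*Nlrp3*, the sensor of the inflammasome (chromosome 11, 59432394 to 59457782), was close to the lower limit of these libraries, with 8 to 92 reads each. In males it was at 1.12, 0.985 and 1.11 CPM in controls, 0.971, 0.876, 1.2 and 1.2 at 1 week, 2.16, 1.47, 0.789 and 2.02 at 3 weeks and 1.51, 1.87 and 2.15 at 6 weeks. In females it was at 0.344, 0.387, 1.45 and 0.61 CPM in controls, 1.57, 1.34, 1.25 and 1.65 at 1 week, 1.67, 1.03, 1.57 and 1.29 at 3 weeks and 1.78, 1.07, 3.13 and 1.45 at 6 weeks. Female control replicate 3 lay inside the induced range, so the female groups overlapped at every time, and the male groups were apart only at 6 weeks. It was called higher in females (0.79, 0.73 and 0.99, adjusted p = 0.0215, 0.0289 and 0.00318) and not in males (-0.02, 0.37 and 0.57, adjusted p = 0.965, 0.247 and 0.0731). The female calls at 1 and 3 weeks were lost without control replicate 1 (0.65, adjusted p = 0.08, and 0.59, adjusted p = 0.0992) or control replicate 2 (0.0768 and 0.0944). The call at 1 week was also lost without 1-week replicate 4 (0.0538). The call at 3 weeks was also lost without control replicate 4 (0.0559), 3-week replicate 1 (0.0788) or 3-week replicate 3 (0.0753), and with edgeR (0.0538) or a pseudocount of 2 (0.053). The male interval takes in the female value at 6 weeks (0.09 to 1.04) and not at 1 week (-0.46 to 0.43), where the female minus male difference was 0.8 (95% interval 0.12 to 1.49, adjusted p = 0.203). Male uninduced hearts were at 0.553 to 1.03 CPM, overlapped the controls and were not called against them (-0.32, adjusted p = 0.635). Against these uninduced hearts male *Nlrp3* was called higher at 3 weeks (0.69, adjusted p = 0.0205), where the groups overlapped. It was also called at 6 weeks (0.89, adjusted p = 0.00555), where they did not.

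*Pycard*, the adaptor that links sensor and caspase (chromosome 7, 127588558 to 127593039), rose in both sexes at every time. In males it was at 3.37, 2.46 and 2.93 CPM in controls, 5.79, 6.14, 4.19 and 3.75 in uninduced hearts, 5.66, 11.2, 8.05 and 5.02 at 1 week, 8.64, 5.32, 6.38 and 6.37 at 3 weeks and 7.09, 7.31 and 8.95 at 6 weeks. In females it was at 3.7, 3.97, 4.0 and 3.49 CPM in controls, 6.23, 5.41, 5.03 and 6.55 in uninduced hearts, 9.0, 8.0, 7.19 and 7.72 at 1 week, 8.93, 9.92, 11.1 and 11 at 3 weeks and 8.17, 8.59, 7.27 and 7.55 at 6 weeks. In both sexes all uninduced libraries already lay above all controls. Against uninduced hearts *Pycard* was called at all 3 times in females and at none in males (adjusted p = 0.102, 0.228 and 0.0609). The log2 fold change was 1.17, 1.06 and 1.28 in males (adjusted p = 0.00057 at 6 weeks) and 0.98, 1.32 and 0.97 in females (adjusted p = 4.11e-07 at 6 weeks).

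*Casp1*, the inflammatory caspase (chromosome 9, 5298508 to 5307290), rose in females from 1.2 to 2.05 CPM in controls to 3.73 to 4.1 at 1 week, 4.23 to 5.6 at 3 weeks and 3.69 to 4.68 at 6 weeks. The female log2 fold change was 0.99, 1.25 and 1.13 (adjusted p = 4.69e-05, 2.11e-06 and 5.86e-06). Male controls were at 1.87, 1.89 and 2.67 CPM and male 6-week hearts at 3.23, 4.27 and 2.22, which overlap. The male change passed at 1 week (0.73, adjusted p = 0.0154) and 3 weeks (0.78, 0.0148) and not at 6 weeks (0.47, 95% interval -0.02 to 0.97, 0.147). Both male calls were lost without control replicate 1 or control replicate 3.

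*Gsdmd* encodes gasdermin D, the pore former (chromosome 15, 75733974 to 75739257), and was called by limma in males at all 3 times and in females at none. In males it was at 8.39, 7.23 and 9.7 CPM in controls, 15.1, 14.5, 14.0 and 12.4 at 1 week, 15.6, 14.3, 11.7 and 9.2 at 3 weeks and 13.5, 15.0 and 16.4 at 6 weeks. In females it was at 10.0, 9.34, 9.01 and 11 CPM in controls, 13.4, 8.7, 11.6 and 13.8 at 1 week, 12.7, 12.9, 15.5 and 13.6 at 3 weeks and 14.4, 10.6, 11.7 and 9.99 at 6 weeks. The female groups overlapped at 1 and 6 weeks and were apart at 3 weeks, and the male groups were apart at 1 and 6 weeks. The male log2 fold change was 0.7, 0.54 and 0.8 (adjusted p = 0.00168, 0.0148 and 0.00121), and the female 0.24, 0.46 and 0.23 (adjusted p = 0.357, 0.0677 and 0.339). The male call at 3 weeks was lost without control replicate 3 (0.44, adjusted p = 0.101), and also without 3-week replicate 1 or 2. The female change at 3 weeks was called by DESeq2 (0.49, adjusted p = 0.0432) and with only the 2 groups in the fit (0.46, adjusted p = 0.003).

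For single genes an exact permutation test over libraries, two-sided, cannot go below 0.0286 where 4 or 3 controls were set against 4 libraries, nor below 0.1 for the 3 against 3 males at 6 weeks. In females *Tlr2*, *Tlr4*, *Tlr13*, *Cd14*, *Myd88*, *Pycard* and *Casp1* reached 0.0286 in this exact test at all 3 times, and *Nlrp3* gave 0.0857 at each. In males *Tlr2*, *Tlr7*, *Tlr13*, *Myd88* and *Pycard* reached 0.0286 at 1 and 3 weeks, while among the other called members the exact p was 0.0571 for *Cd14* and *Casp1* at 1 week and 0.0857 for *Gsdmd* at 3 weeks. At 6 weeks the called male members gave 0.1 in the exact test, except *Tlr7* at 0.3.

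In uninduced CM-Il11-Tg hearts, which had not received tamoxifen, members were called against control in females and none in males; whether the sexes differed there was not tested. In females 4 of 10 members were called higher, where 2.41% of all genes were, and 0 lower, where 0.466% were: *Tlr2* (log2 fold change 0.83, adjusted p = 0.000699), *Tlr4* (0.76, 0.0148), *Tlr13* (0.71, 0.0404) and *Pycard* (0.55, 0.00498). *Myd88* (0.68, adjusted p = 0.0645) was called as well by edgeR (0.77, adjusted p = 0.0489) and DESeq2 (0.78, adjusted p = 0.00912). All 4 uninduced female libraries lay above all controls for *Tlr2*, *Tlr13* and *Pycard*, 3 of 10 members, against 5.13% of all genes. In males limma called 0 of 10, where 0.561% of all genes were called higher and 0.0354% lower, and so did edgeR and DESeq2, with 2 members at an unadjusted p under 0.05, as were 10.6% of all genes. These 2 were *Pycard* (0.66, adjusted p = 0.275) and *Myd88* (0.41, adjusted p = 0.262), whose uninduced male libraries lay above all controls, as for 8.16% of all genes. Without female uninduced replicate 3, the library with the most *Il11*, the female calls fell to 2, *Tlr2* and *Pycard*, and the same 2 remained without female control replicate 2 or 4. The *Tlr13* call was also lost without control replicate 1 (adjusted p = 0.0679), uninduced replicate 2 (0.0639) or uninduced replicate 4 (0.0558), and with a pseudocount of 2 (0.137). With only the 2 groups in the fit, *Tlr2* alone was called (adjusted p = 0.0328).

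Set against uninduced in place of control hearts, fewer members were called. In males 6, 7 and 6 of 10 members were higher at 1, 3 and 6 weeks, where 12.1%, 10.6% and 13.0% of all genes were, and in females 6, 5 and 7, where 8.32%, 10.6% and 13.7% were. *Tlr2*, *Tlr13* and *Cd14* were called at every time in both sexes. *Tlr7* was called in females at 1 and 6 weeks and at no time in males (adjusted p = 0.116, 0.0661 and 0.0711). At 6 weeks *Tlr2* was 0.96 above uninduced in males and 1.24 in females, and *Tlr13* 1.47 and 1.29, all as log2 fold changes.

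Between the induced times the 10 genes differed little. No member was called in any of the 6 comparisons of 3 with 1, 6 with 1 and 6 with 3 weeks by limma, where the shares of all genes called in either direction were 0.0177%, 0.165% and 0.0% in males and 0.218%, 1.03% and 0.0% in females. At an unadjusted p under 0.05 there were 0, 1 and 0 members in males and 2, 1 and 3 in females, where 16.0%, 15.4% and 6.33% of all genes were in males and 10.0%, 12.6% and 15.2% in females. The closest was female *Cd14* at 6 against 1 week, 0.72 higher on the log2 scale with an adjusted p = 0.0607. DESeq2 on recovered reads called it there (adjusted p = 0.0103) and at 6 against 3 weeks (0.0192), and edgeR did not (0.0618 and 0.166).

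Whether the rise differed between the sexes was tested as the female minus the male change in 1 fit of all 38 libraries. No member passed, at 0.0% of all 16627 genes for each time, with 3, 1 and 4 members at an unadjusted p under 0.05, as were 17.5%, 4.16% and 17.4% of all genes. *Tlr2* came closest: its female change exceeded the male by 0.6 at 1 week (95% interval 0.18 to 1.01, adjusted p = 0.123), 1.06 at 3 weeks (0.65 to 1.48, adjusted p = 0.145) and 0.87 at 6 weeks (0.43 to 1.3, adjusted p = 0.119). DESeq2 on recovered reads called it at 3 weeks (adjusted p = 0.00778) and 6 weeks (0.0233), and edgeR at neither (0.0722 and 0.103). *Gsdmd* had the most negative difference at 6 weeks, -0.57 (95% interval -1.1 to -0.04, adjusted p = 0.254). *Casp1* was 0.66 larger in females at 6 weeks (95% interval 0.1 to 1.22, adjusted p = 0.219) and *Cd14* 0.62 (0.01 to 1.22, adjusted p = 0.283).

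Of 67 further genes of the 2 pathways in 7 lists, 61 were tested in each sex. At 6 weeks 32 were higher and 3 lower in males and 34 higher and 7 lower in females, with medians of 0.57 and 0.59, where 16.2% and 21.7% of all genes were called higher and 10.9% and 21.0% lower. The counts below are by list, and the lists were not tested against each other.

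Of 7 other Toll-like receptors tested, 5 were higher in males and 6 in females at 6 weeks, and none was lower. *Tlr9*, the receptor for bacterial DNA, rose by 1.63 in males and 2.35 in females, *Tlr1*, a partner of TLR2, by 1.42 and 2.06, and *Tlr5*, the flagellin receptor, by 1.33 and 1.07. Female controls held only 4 to 14 reads of *Tlr9* and 1 to 16 of *Tlr1*. Over the alternative settings that keep all libraries, the female change ran from 1.32 to 3.45 for *Tlr9* and from 1.13 to 2.86 for *Tlr1*. *Tlr3*, which binds double-stranded RNA, was called in neither sex (0.15 and 0.28). Of 8 co-receptors, carriers and chaperones, 6 were higher in each sex. *Lbp*, the carrier that passes lipopolysaccharide to CD14, had the largest change of all the pathway genes: 3.49, 3.56 and 6.51 CPM in male controls against 108, 137 and 178 at 6 weeks, and 5.76 to 6.6 against 135 to 179 in females. Its mean was 31.2 times the control mean in males (log2 fold change 4.84, adjusted p = 3.43e-11) and 25.7 times in females (4.57, 1.24e-11). It was also called in uninduced hearts of both sexes (1.29 and 1.19), where female replicate 3, at 33.6 CPM, stood above the 9.99 to 13.0 CPM of the others. *Ly86*, the partner of CD180, rose by 2.2 and 2.42, and *Unc93b1*, which carries the endosomal receptors to their compartment, by 1.86 and 2.0.

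Among 17 adaptors, kinases and transcription factors, 5 were higher and 1 lower in males and 4 higher and 5 lower in females, with medians of 0.11 and 0.01, so 29.4% and 23.5% of this list were higher. *Ticam2*, an adaptor of TLR4, rose by 1.27 and 1.52 on at most 88 reads in any library, and *Irf5*, a factor activated downstream of TLR7 and TLR9, by 1.38 and 1.55. *Map3k7*, the kinase TAK1, was lower in both sexes (-0.32, adjusted p = 0.0374, and -0.41, adjusted p = 0.00156). *Irf3*, named after its values were seen, was called higher in males (0.36, adjusted p = 0.0443) and lower in females (-0.49, adjusted p = 0.0452), and the difference itself, -0.84, was not called (95% interval -1.35 to -0.34, adjusted p = 0.134). Of 3 inhibitors tested, *Irak3* was higher in both sexes (0.83 and 0.72) and *Tollip* lower in both (-0.36 and -0.25), while *Sigirr* was lower in females (-0.51) and not called in males (0.22).

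Of 11 other cytosolic sensors, 7 were higher and 1 lower in males and 6 higher in females. *Mefv*, which encodes pyrin, was fitted 1.04 and 1.75 higher, but its controls held at most 4 reads each, and its male value ranged from 0.36 to 4.31 with the scale of the fit. Of 11 triggers, caspases, substrates and effectors, 5 were higher in males and 7 in females. *Panx1*, a channel that releases ATP, rose by 2.08 and 2.64, and *Casp4*, the caspase that senses cytosolic lipopolysaccharide, by 2.26 and 1.92. The substrates, named after their values were seen, had few reads. *Il1b* was at 0.244 to 1.87 CPM in male controls and 0.21 to 2.11 at 6 weeks (0.12, adjusted p = 0.882), and at 0.0968 to 0.901 in female controls and 1.93 to 2.93 at 6 weeks (1.73, adjusted p = 0.000105). The female minus male difference of *Il1b*, 1.61, was not called (95% interval 0.42 to 2.8, adjusted p = 0.172). *Il18* was called higher in both sexes (0.91, adjusted p = 0.0414, and 1.34, adjusted p = 1.4e-05). Of 4 restraints, 3 were higher in males and 4 in females, with *Serpinb1a*, an inhibitor of the inflammatory caspases with near relatives that could share its reads, at 2.04 and 2.55. *Nlrp1a*, *Nlrp6*, *Nlrp12* and *Gsdmc2* were listed in neither table, and *Tlr11* and *Sarm1* in the male table alone, below the filter.

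**Figure D3:**
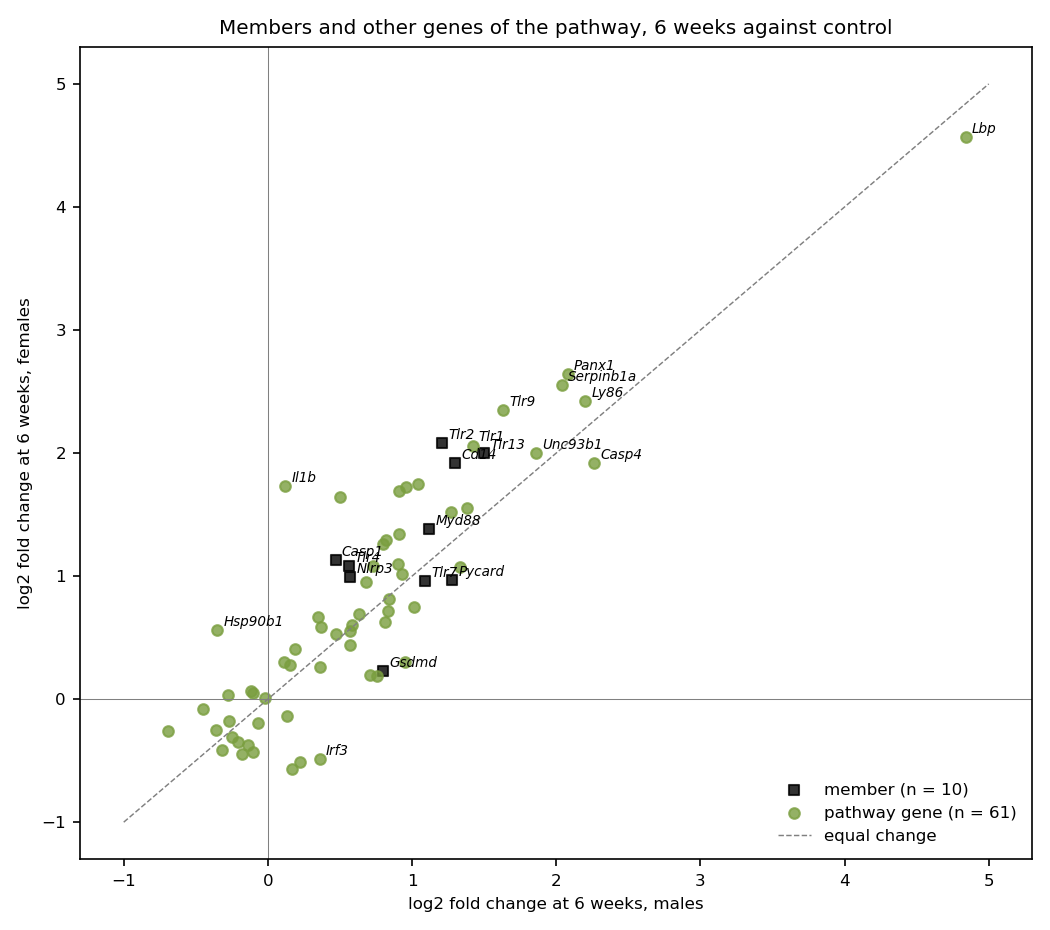
Each point is 1 gene, placed by its log2 fold change at 6 weeks in males (horizontal) and females (vertical); squares are the 10 members, circles 61 other genes of the pathways, and the dashed line marks equal change. *Lbp* stands apart at 4.84 and 4.57, and *Tlr2* lies above the line at 1.21 and 2.08.

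Markers of macrophages and monocytes moved with the members. The summed level of 15 such genes was 258 to 414 CPM in male controls and 926 to 1460 CPM in induced males, and 248 to 308 against 1070 to 1440 CPM in females, with 14 of 15 called higher in males and 13 of 15 in females at 6 weeks. Of all genes tested, 16.2% were called higher in males and 21.7% in females at that time. The defining markers *Adgre1*, *Csf1r* and *C1qa* rose by 1.58, 1.61 and 2.2 in males and by 2.46, 2.11 and 2.5 in females. In uninduced hearts 0 of the 15 were called in males and 11 higher in females, where 0.561% and 2.41% of all genes were called higher. The sums there were 367 to 516 and 434 to 592 CPM. All 6 general leukocyte genes were called higher at each induced time in both sexes. Of all genes, 13.2% to 18.9% were called higher at these times in males and 15.3% to 21.7% in females. The part of macrophages, monocytes and other leukocytes in the members' rise was not tested.

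Fibroblast genes moved as well, and the other cell types less. Of 6 fibroblast genes 5 were higher at 6 weeks in each sex, with a median change of 1.73 in both, and their summed level was 509 to 699 CPM in controls against 2410 to 2880 at 6 weeks in males and 606 to 810 against 2910 to 5470 CPM in females. Of all genes, 16.2% were called higher at 6 weeks in males and 21.7% in females. Neutrophil markers were at low levels: 4 of 10 were listed, and 2 of these were called higher at 6 weeks in each sex. Their sum was 1.5 to 3.52 CPM in male controls against 4.95 to 6.04 at 6 weeks, and 1.31 to 5.12 against 3.55 to 6.66 CPM in females. *Ly6g* was not listed, and *Csf3r*, which monocytes also express, rose by 1.36 and 1.35. *S100a8* averaged no more than 1.12 CPM in any group. At 6 weeks it was below control without being called (-0.67, adjusted p = 0.106, in males and -0.4, adjusted p = 0.245, in females). The median change of the 4 listed genes was then 0.11 in males and 0.46 in females. In males at 3 weeks 1 of the 4 was called lower, where 8.1% of all genes were. The T cell sum was 1.8 to 4.18 CPM in male controls and 8.4 to 10.3 at 6 weeks, and 2.52 to 5.47 against 10.7 to 18.9 CPM in females. The B and plasma cell sum was 1.91 to 3.06 against 3.21 to 9.57 CPM in males and 3.15 to 6.16 against 4.21 to 13.5 CPM in females, and *Ms4a1* was not listed in males. Of 8 endothelial genes 3 were called lower at 6 weeks in males and 6 in females, and of 7 cardiomyocyte genes 1 and 3. Of all genes, 10.9% were called lower in males and 21.0% in females. The part of each cell type in the members' values was not tested.

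**Figure D4:**
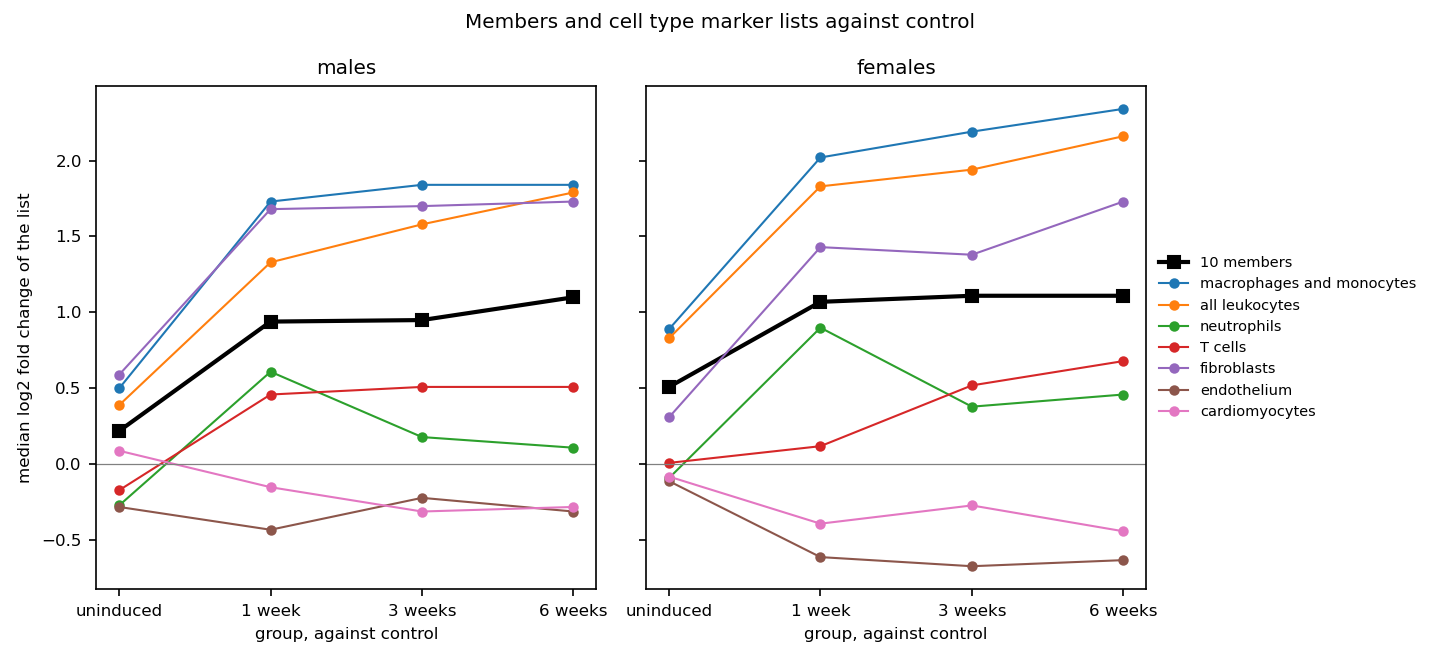
The median log2 fold change against control (vertical axis) of the 10 members (black squares) and of each cell type's marker list (coloured lines) is drawn for uninduced hearts and for 1, 3 and 6 weeks, males left and females right. The macrophage and monocyte list lies above the members in both panels, reaching 1.84 in males and 2.34 in females at 6 weeks, and the fibroblast list reaches 1.73 in both.

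Over the 38 libraries, the genes whose level followed most closely the 3 members with the largest mean change of the sexes at 6 weeks were taken as those with the smallest root-mean-square difference in log2(CPM + 0.5), after centring within each sex, of 16626 candidates. For *Tlr13* they were *Pla2g7* (0.252), *Nckap1l* (0.255) and *Lcp1* (0.263), for *Tlr2* *Otulinl* (0.22), *Aldh3b1* (0.222) and *Sirpa* (0.225), and for *Cd14* *Pla2g15* (0.284), *Ptpn1* (0.29) and *Fzd1* (0.293). *Tlr13*, *Tlr2* and *Cd14* themselves varied by 0.803, 0.701 and 0.624 about their own means.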

How the data were processed

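Each mouse heart gave 1 library. The authors made polyA libraries with a directional kit, aligned reads to GRCm39 with STAR and counted them on genes with featureCounts. The signal values that the authors deposited are named CPM, in 1 table per sex. Each library has its own scale factor, and multiplying it back gave whole reads, to within 0.001, for 100% of values. Columns sum to 817395 to 1193422 in males and 848402 to 1196278 in females, highest in controls, so they were not scaled to 1 common sum over the listed genes. How genes were chosen for the tables, and whether counting used strand, are not given in the sources used here.

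Groups came from the labels. Of 40 libraries, 2 male ones were left out because title and column name disagree on whether they are control or 6-week hearts. Replicates are separate mice. Genes that reached 0.5 CPM in 3 or more libraries were tested with limma 3.58.1 (R 4.3.3) on log2(CPM + 0.5), all groups of a sex in 1 fit, with Benjamini-Hochberg adjustment over all genes and a call at an adjusted p under 0.05. Intervals are 95%. The counting test, edgeR 4.0.16 (quasi-likelihood), was run on the recovered reads and called 2881 genes higher and 1785 lower in males at 6 weeks, and 3687 and 3381 in females, against 2742 and 1838, and 3678 and 3567, by limma. DESeq2 1.42.0 was a further alternative, beside pseudocounts of 0.1 and 2, no filter, a filter at 1 in 4 libraries, median-of-ratios scaling, a replicate block, only the compared groups in the fit, and leaving out each library. Rescaling the libraries of a table to 1 common sum was added after seeing the data. The limma and edgeR fits within a sex were tested on simulated counts with known changes at 6 weeks. The other fits, among them the sex difference and DESeq2, and the search for the closest genes were not tested this way.

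The members and all lists were chosen with earlier results of these data known. Named were all members, *Il11*, pathway genes called at 6 weeks in the same direction in both sexes and by 1 or more on the log2 scale, genes missing from a table, defining markers, and the closest genes to 3 members. Other pathway genes given with values (*Tlr3*, *Map3k7*, *Irf3*, *Irak3*, *Tollip*, *Sigirr*, *Il1b* and *Il18*) were chosen after their values were seen. Same-numbered replicates did not deviate together: the mean correlation of their deviations was 0.0132 in males and 0.0255 in females, so the numbers were not used as pairs. No libraries were duplicates. Upstream sequences are from GRCm39 with GENCODE starts, and motifs were searched on both strands.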

Additional observations from a re-analysis of the deposited data

Results flagged for a closer look

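In 2 of 80 groups of 4 libraries examined (10 members and 8 such groups), 1 library stood apart from the other 3, where chance alone gives about 1 in 20. *Gsdmd* in uninduced males was at 7.32 CPM in replicate 2, with the nearest other at 8.55. *Tlr13* in females at 6 weeks was at 10.1 CPM in replicate 3, with the nearest other at 5.84, and that library was the highest of its group for 5 of 10 members, the others being *Tlr2*, *Tlr4*, *Tlr7* and *Nlrp3*.

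The 2 male libraries left out for contradictory labels entered no comparison. The library whose column name gives the control group and whose title gives 6 weeks had 2 of 10 members above the highest male control (*Cd14* at 6.73 and *Myd88* at 12.1 CPM), 6 within the control range and *Il11* at 0.597 CPM. The library whose column name gives the 6-week group and whose title gives control had 10 of 10 members above the highest male control, among them *Tlr2* at 9.64, *Tlr4* at 23.1 and *Cd14* at 21.3 CPM, with *Il11* at 511 CPM.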

How the results depend on the processing

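Changes against control were recomputed for every member at 1, 3 and 6 weeks and, in uninduced hearts, for members at an unadjusted p under 0.05, 69 values in all. The direction turned for 1, male *Nlrp3* at 1 week (-0.02, not called), which was 0.02 with the replicate block, 0.23 with the rescaling below and -0.06 to 0.04 without single libraries. Among the other alternatives that keep all libraries, 661 left the call as it was, 14 took it below the threshold and 13 raised it above; leaving out single libraries left 456, took away 43 and added 7. Requiring a log2 fold change of at least 1 cut the members called higher at 1, 3 and 6 weeks. Against control it left 4, 4 and 6 in males and 5, 6 and 6 in females. Against uninduced it left 1, 1 and 2 in males and 2, 1 and 3 in females. The same requirement left 0 members in female uninduced hearts and 13 male and 22 female pathway genes. With only the 2 compared groups in the fit, the counts were 23 for male pathway genes, 1 for female uninduced hearts and 4 for females at 6 weeks against uninduced. Rescaling to 1 common sum per library gave 6 members in female uninduced hearts and moved the median of all genes to 0.33, 0.23 and 0.16 in males and 0.28, 0.3 and 0.33 in females at 1, 3 and 6 weeks, with the share of called genes that were higher at 6 weeks going from 59.9% to 85.8% and from 50.8% to 88.9%. Male *Nlrp3* (0.69, adjusted p = 0.035) and female *Gsdmd* (0.61, 0.0146) were then called at 6 weeks, and female *Gsdmd* also at 1 week (0.57, 0.025) and 3 weeks (0.79, 0.00327), and male *Tlr4* at 1 week (0.61, 0.0192) and 3 weeks (0.7, 0.0136). Female *Cd14* at 6 against 1 week was called (1 member) with a pseudocount of 2, the rescaling, only 2 groups and DESeq2, and at 6 against 3 weeks (1) with DESeq2. *Tlr2* differed between the sexes (1 member) at 3 weeks with DESeq2 or only 4 groups, and at 6 weeks with DESeq2. The causes were not tested.

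With the replicate block, the numbers being no true pairs, 1 member (*Cd14*, adjusted p = 0.0353) was called in females at 6 against 1 week, *Myd88* was called in female uninduced hearts (adjusted p = 0.0491) and male *Tlr4* at 6 weeks was not (adjusted p = 0.0684).

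Leaving out each library in turn gave the following ranges. Against control, males had 6 to 8 members higher at 1 week, 5 to 8 at 3 weeks (5 without control replicate 3) and 6 to 7 at 6 weeks, and females 8 to 9, 8 to 9 and 9. Against uninduced, males had 4 to 6, 5 to 7 and 6 to 7, and females 5 to 7, 5 to 7 and 5 to 8. Uninduced against control gave 0 in males and 2 to 5 in females. Calls were gained at 3 weeks for male *Nlrp3* without 3-week replicate 3 (0.59, adjusted p = 0.0323) and male *Tlr4* without 3-week replicate 1 (0.59, 0.0343), at 6 weeks for male *Casp1* without 6-week replicate 4 (0.69, 0.0456), and in uninduced females for *Cd14* without control replicate 3 (0.69, 0.0112), *Casp1* without uninduced replicate 4 (0.6, 0.0225) and *Myd88* without uninduced replicate 1 or 4 (0.0225 and 0.0392). Pathway genes at 6 weeks ranged from 23 to 31 of 35 in males (23 without control replicate 3) and from 37 to 40 of 41 in females. Female 6 against 3 weeks gave 0 to 1, and the sex difference at 6 weeks 0 to 1 (*Tlr2*, without male 6-week replicate 1 or 3 or female 6-week replicate 1). Depth limits *Nlrp3*, *Ticam2*, *Il1b*, *Il18* and *Mefv*, which held at most 92 reads in any library. It also limits *Tlr1* and *Tlr9*, which held at most 16 and 14 reads in any female control.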
